A study of Mus musculus with 72 samples.

Results

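Tumor-draining lymph nodes taken at study day 23 were compared between mice given TS, PD1 and CYTO together and mice given PD1 and CYTO without TS. The 6 libraries were chosen by treatment arm, tissue and day as the labels give them, out of 72 in the series and out of 18 from day 23 nodes. All 6 mice were BALB/c animals carrying CT26, a transplantable mouse colon carcinoma line, and both groups received PD1 and CYTO, so TS is the component by which they differ. The labels do not spell out TS or CYTO, and the names are used here as written. The TS/PD1/CYTO group held mice 58, 59 and 60 and the PD1/CYTO group mice 38, 39 and 40, each a separate animal, and all were sequenced in batch 2 as stranded polyadenylated RNA. Values are log2(TPM + 1), where TPM is the length-scaled share of a library's transcripts, for 16835 genes under upper-case symbols. The lowest value, 0.01, is called the floor. A difference is TS/PD1/CYTO minus PD1/CYTO on that log2 scale, which understates the change of low genes.

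A draining lymph node receives antigen and migrating dendritic cells from the tumor. In it, T cells are primed in the T zone, B cells gather in follicles through CXCR5 and its ligand CXCL13, and macrophages line the sinuses through which lymph flows. Type I interferon acts through a complex that holds STAT2 and IRF9 and binds interferon-stimulated response elements in the promoters of antiviral genes. Blockade of the PD1 receptor releases T cells from inhibition, in nodes as well as in tumors.

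Of 12 genes set down as markers of lymph node tissue, 11 were listed in the table, and all 11 stood at 3.24 or higher in each of the 6 libraries, so the tissue label holds for all of them. The 6 libraries had between 11489 and 12013 genes above the floor, and the read depth is unknown. TS/PD1/CYTO nodes 59 and 60 stood apart from the other 4 libraries. Correlations over the tested genes ran from 0.987 to 0.993 among PD1/CYTO 38, 39 and 40 and TS/PD1/CYTO 58, and 59 and 60 correlated with those 4 at 0.956 to 0.983. Markers of fat, epithelium and matrix went with this split. The mean of the 16 adipocyte genes listed was 3.31, 5.11 and 3.98 in PD1/CYTO 38, 39 and 40, and 3.26, 5.86 and 6.14 in TS/PD1/CYTO 58, 59 and 60. For the 14 epithelial and keratin genes listed it was 1.22, 2.46 and 1.95 against 1.3, 4.01 and 3.79, and for the 15 collagen and matrix genes listed 5.68, 5.73 and 5.87 against 5.60, 6.89 and 7.0. Library 58 lay with the PD1/CYTO nodes on the adipocyte, epithelial and matrix lists. The median differences of +1.06, +1.34 and +0.73 over the adipocyte, epithelial and matrix lists became -1.17, -0.65 and -0.14 without 59 and 60. Their part in the results below was not tested. Medians of many lists are given with and without those 2 libraries, and for some lists also with the mean of these markers as a covariate. Without 59 and 60, node 58 is the sole TS/PD1/CYTO node. RNA integrity numbers were 7.1, 6.5 and 5.9 in PD1/CYTO and 7.2, 4.5 and 6.8 in TS/PD1/CYTO, with the lowest in node 59.

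Tumor volumes at day 23 were 294, 702 and 29.2 mm3 in the PD1/CYTO mice and 175, 2198 and 321 mm3 in the TS/PD1/CYTO mice. The groups overlapped, with the largest tumor in mouse 59 and the smallest in mouse 40. The difference of +1.45 in mean log2 volume had an exact two-sided permutation p = 0.5, where 3 against 3 mice cannot go below 0.1.

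The first comparison asked which transcripts of the node differed when TS was added to PD1 and CYTO. One of 12203 genes tested passed the 5% threshold (0.00819%), the small nucleolar RNA SNORA21, and it was lower with TS. No messenger RNA passed. At an unadjusted p under 0.05, 901 genes were lower with TS (7.38%) and 251 were higher (2.06%), and the smallest adjusted p after that of SNORA21 was 0.406 (limma, Benjamini-Hochberg). The median difference over all genes was -0.05. For 1417 genes all 3 TS/PD1/CYTO nodes lay below all 3 PD1/CYTO nodes (11.6%), and for 211 genes above them (1.73%). Differences named below are therefore measured values of genes that did not pass, unless a sentence says otherwise. In bulk RNA, fewer cells of a type and less RNA per cell cannot be told apart.

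SNORA21, a box H/ACA small nucleolar RNA of the family that guides pseudouridylation, spans 137 bases on the minus strand (GRCm38, chromosome 11, 97781639 to 97781775) within the ribosomal protein gene RPL23 on the same strand. Its level was 2.75, 2.30 and 2.95 in PD1/CYTO 38, 39 and 40 and at the floor in all 3 TS/PD1/CYTO nodes. The difference was -2.66 ± 0.23 (SE, n = 3 and 3, limma adjusted p = 7.4e-05), and no fold is given against a group at the floor. SNORA21 met the filter of 3 libraries above the floor through the PD1/CYTO nodes, so its groups had to differ. Its SE rests largely on arms at the floor, and the p is given as fitted and supports nothing. Among the other 12 day 23 nodes it was above the floor in CYTO 20 alone, at 1.06. It was above the floor in 9 of 18 day 16 nodes, 2 of 18 spleens and 5 of 18 tumors. RPL23 was between 10.95 and 11.03 in all 6 nodes. SNORA21 lies below the expression level set for naming genes and was named after its values were seen. SNORA23, another member of that family, lay the other way, at the floor in the 3 PD1/CYTO nodes and at 0.58, 0.56 and 1.14 in TS/PD1/CYTO, and it did not pass. SNORA23 was above the floor in 4 of 18 day 23 nodes and met the filter through the TS/PD1/CYTO nodes, so its groups too had to differ. It too was named after its values were seen.

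Type I interferon response genes were lower in the TS/PD1/CYTO nodes. All 18 of 18 tested genes of the list had a difference below 0, against 61.1% of all genes tested, and in 13 of 18 the groups did not overlap, against 11.6% of all genes. None of the 18 passed the 5% threshold. The list median was -0.61, where that over all genes was -0.05. With 59 and 60 left out, which leaves node 58 alone, the list median was -0.58 with 18 of 18 below 0. Over all genes that setting gave a median of -0.07, with 8400 of 12070 below 0. With the mean of the fat, epithelial and matrix markers as a covariate the list median was -0.61.

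IFIT1, which binds viral RNA that lacks host cap methylation, was at 3.27, 3.75 and 3.25 in PD1/CYTO and at 2.36, 2.96 and 2.17 in TS/PD1/CYTO. Its relative IFIT3 was at 4.18, 5.00 and 4.60 against 3.68, 3.84 and 3.53. Every TS/PD1/CYTO node was below every PD1/CYTO node for both genes, with differences of -0.93 ± 0.35 and -0.91 ± 0.33 (SE; limma adjusted p = 0.497 for each). ISG15, a ubiquitin-like protein attached to target proteins, was at 5.91, 6.09 and 5.56 against 5.14, 5.02 and 4.92. USP18, the protease that removes ISG15 and damps receptor signaling, was at 5.00, 5.20 and 5.34 against 4.73, 4.43 and 4.56. The groups were separate for ISG15 and USP18, and nodes 58, 59 and 60 lay close together on both. The interferon response genes MX1 and MX2 had differences of -0.61 and -0.82, and OAS3, which makes the second messenger that activates RNase L, one of -0.87. STAT2, a subunit of the factor that binds the response element, differed by -0.46 ± 0.11 (SE, adjusted p = 0.406), from 6.10, 6.02 and 5.99 to 5.69, 5.51 and 5.54. RSAD2, the antiviral enzyme viperin, overlapped between the groups, at 0.93, 1.16 and 0.51 against 0.15, 1.35 and 0.19.

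The promoters of the 6 list genes with a match to the response element that the STAT2 complex binds are shown. Its core was searched as GAAA, any 2 bases, then GAAA, on both strands in the 250 bases before the start and a match on the other strand is printed as its reverse complement. It was present in 6 of the 12 list genes with a window in the RefSeq table (50%), against 282 of 9292 tested genes with a window (3.03%) and 978 of 32851 windows in all (2.98%). Of the interferon-gamma list 6 of 14 held it (42.9%), and of the B cell list 1 of 10. A match describes letters in this window only. Below are 90 bases of RefSeq sequence (GRCm38.p6), 5' to 3' on the strand of the gene, with matches to the core in capitals. The windows are chr19:34640765-34640854 (plus strand) for IFIT1, chr19:34583353-34583442 (plus) for IFIT3, chr4:156200827-156200916 (minus) for ISG15, chr5:120777665-120777754 (minus) for OAS3, chr12:26456503-26456592 (minus) for RSAD2 and chr10:128270256-128270345 (plus) for STAT2.
IFIT1: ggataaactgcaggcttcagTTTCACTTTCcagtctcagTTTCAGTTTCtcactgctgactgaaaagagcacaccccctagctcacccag
IFIT3: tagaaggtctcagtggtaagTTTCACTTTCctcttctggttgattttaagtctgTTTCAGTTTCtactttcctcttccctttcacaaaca
ISG15: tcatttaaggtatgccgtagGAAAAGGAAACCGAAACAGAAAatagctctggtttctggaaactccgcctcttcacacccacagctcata
OAS3: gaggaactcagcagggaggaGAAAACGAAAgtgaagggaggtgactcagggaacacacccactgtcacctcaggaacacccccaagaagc
RSAD2: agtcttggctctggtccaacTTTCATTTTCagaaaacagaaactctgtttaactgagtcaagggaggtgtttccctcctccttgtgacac
STAT2: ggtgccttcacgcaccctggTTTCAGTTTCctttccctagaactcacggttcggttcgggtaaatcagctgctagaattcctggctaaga
Within the bases printed, IFIT1 and IFIT3 each held 2 matches and ISG15 held 3 overlapping ones. OAS3, RSAD2 and STAT2 each held 1, and RSAD2 is the gene of these 6 whose groups overlapped.

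On the interferon list the TS/PD1/CYTO nodes lay near the Isotype controls and the PD1/CYTO nodes lay above them. The mean over the 18 genes was 4.21, 3.83 and 3.83 in Isotype 8, 9 and 10. It was 4.40, 4.67 and 4.48 in PD1/CYTO 38, 39 and 40, and 3.99, 4.06 and 3.77 in TS/PD1/CYTO 58, 59 and 60. All 3 PD1/CYTO nodes were above all 3 Isotype nodes, and the TS/PD1/CYTO nodes overlapped with them. PD1 nodes 28, 29 and 30 had means of 4.33, 4.00 and 4.23, so that PD1 28 came close to PD1/CYTO 38. CYTO nodes 18, 19 and 20 had means of 4.25, 3.66 and 3.76, and TS/CYTO nodes 48, 49 and 50 of 5.42, 4.55 and 4.46.

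**Figure D1:**
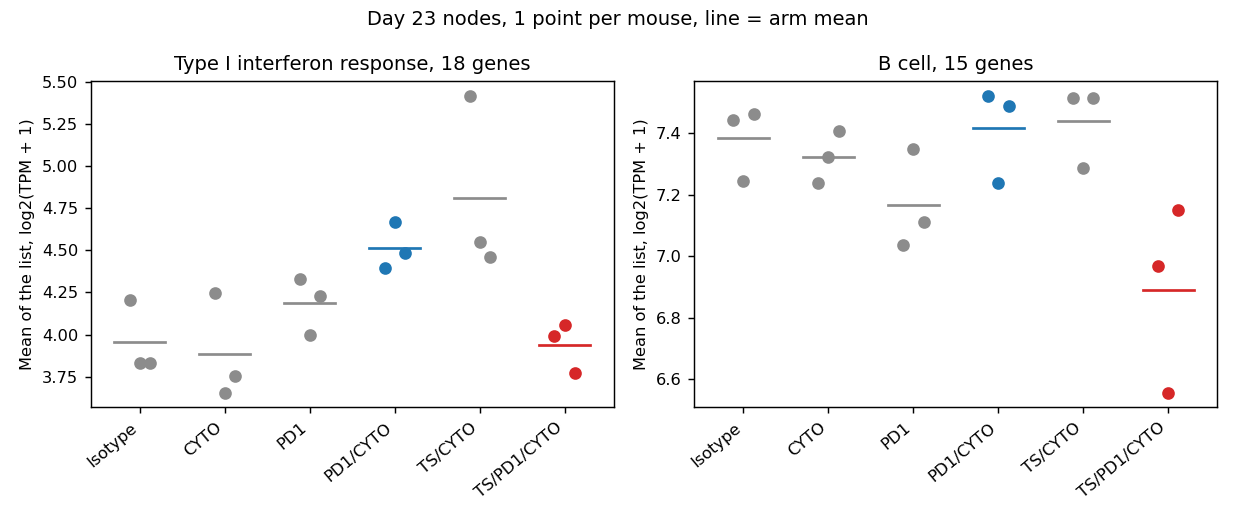
Mean log2(TPM + 1) of the type I interferon response list (left, 18 genes) and the B cell list (right, 15 genes) in each day 23 node, by treatment arm; each point is 1 mouse and each line the mean of 3 mice. On the left the 3 PD1/CYTO nodes lie at 4.40 to 4.67 and the 3 TS/PD1/CYTO nodes at 3.77 to 4.06, and on the right TS/PD1/CYTO has the lowest arm mean, 6.89.

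The same added component was then compared without PD1, in nodes of other mice: TS/CYTO against CYTO. There the interferon genes lay the other way. All 18 were higher in TS/CYTO (30.8% of all genes tested were), in 13 of 18 the groups did not overlap (2.93% of all genes), and the list median was +0.86, where that of all genes was -0.07. No gene passed the 5% threshold for TS/CYTO against CYTO (0%), where limma gave a smallest adjusted p of 0.119, and 966 genes were lower (7.92%) and 151 higher (1.24%) at an unadjusted p under 0.05. A difference below 0 was found in 68.6% of genes. TS/CYTO 48 had the highest interferon mean of the 18 nodes, and without it the median was +0.67.

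The difference between these comparisons was tested gene by gene as an interaction of TS with PD1. One gene passed (0.00819%), again SNORA21, at -2.31 (adjusted p = 0.0437), which restates its PD1/CYTO values against arms at or near the floor and supports nothing further. All 18 interferon genes had an interaction below 0, against 44.8% of all genes, and 17 of 18 had an unadjusted p under 0.05, against 3.30% of all genes, yet none passed after adjustment. The list median was -1.38, or -1.20 without TS/CYTO 48 and -1.35 without TS/PD1/CYTO 59 and 60, where the median of all genes was +0.03. IFIT3 had the largest interaction of the list, -2.97 ± 0.47 (SE, adjusted p = 0.0859), made up of -0.91 with PD1/CYTO and +2.06 with CYTO. IFIT1 stood at -2.69 ± 0.50 (adjusted p = 0.198) and MX2 at -2.13 ± 0.41 (adjusted p = 0.198). RTP4, a chaperone for taste and opioid receptors that interferon induces, was at -1.42 ± 0.27 (adjusted p = 0.198), USP18 at -1.24 ± 0.24 (adjusted p = 0.217) and DHX58, a sensor of viral RNA outside the list, at -1.20 ± 0.24 (adjusted p = 0.24).

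**Figure D2:**
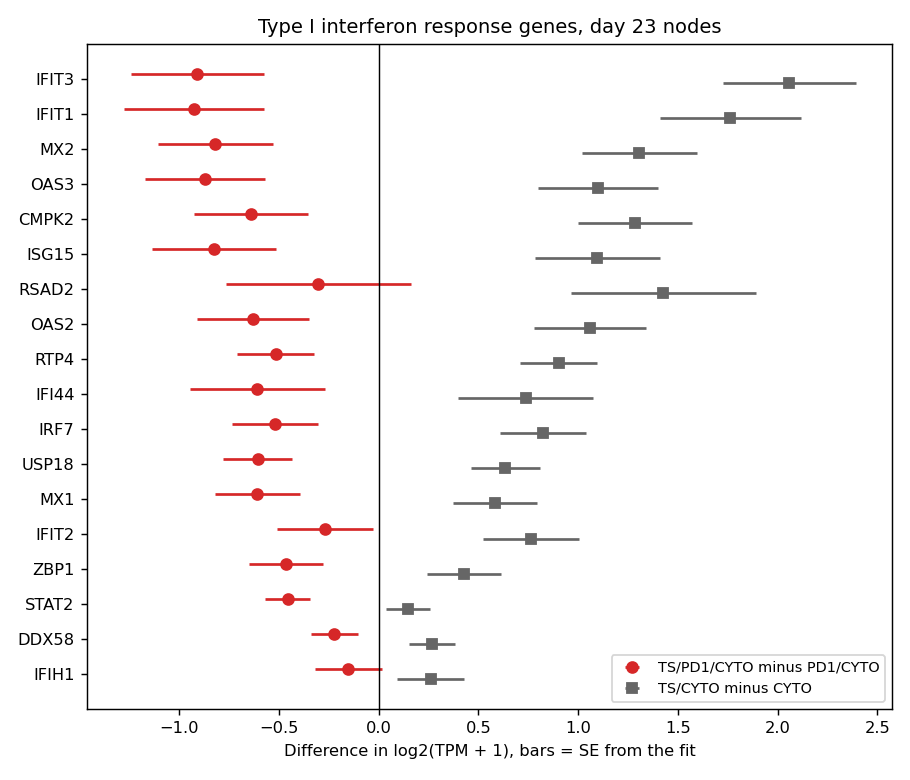
Difference in log2(TPM + 1) for each of the 18 type I interferon response genes in day 23 nodes, with TS added to PD1/CYTO (red circles) and to CYTO (gray squares); bars are standard errors from the fit and genes are ordered by the interaction. Red points run from -0.93 for IFIT1 to -0.15 for IFIH1 and gray points from +0.15 for STAT2 to +2.06 for IFIT3.

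PML, the scaffold of nuclear bodies and itself induced by interferon (chromosome 9, 58218076 to 58249786), had the smallest p of all messenger RNAs. It was at 6.80, 6.75 and 6.69 in PD1/CYTO and at 6.23, 5.95 and 6.19 in TS/PD1/CYTO. The groups were far apart relative to their spread, and the difference was -0.62 ± 0.12 (SE, adjusted p = 0.406). The arm means for PML were 6.46 ± 0.06 (SD, n = 3) in Isotype, 6.42 ± 0.18 in CYTO, 6.28 ± 0.20 in PD1 and 6.74 ± 0.18 in TS/CYTO, so TS/PD1/CYTO had the lowest mean, 6.12 ± 0.15. Its interaction was -0.94 ± 0.17 (SE, adjusted p = 0.185). HELZ2, an interferon-induced helicase and nuclear receptor coactivator, followed at 6.23, 6.25 and 6.40 against 5.91, 5.50 and 5.79, a difference of -0.56 ± 0.13 (adjusted p = 0.406).

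B cell genes were lower in the TS/PD1/CYTO nodes as well. All 15 of 15 tested had a difference below 0, all 15 had an unadjusted p under 0.05, against 7.38% of all genes, and in 11 the groups did not overlap, against 11.6% of all genes. None passed the 5% threshold, and the list median was -0.56. With node 58 as the sole TS/PD1/CYTO node it was -0.46, with 15 of 15 below 0, where 8400 of 12070 genes were. It was -0.37 without 59 alone, and -0.50 with the other-tissue marker mean as a covariate. The list mean was 7.52, 7.24 and 7.49 in PD1/CYTO against 6.97, 6.56 and 7.15 in TS/PD1/CYTO, and 7.44, 7.25 and 7.46 in Isotype. In PD1 28, 29 and 30 it was 7.04, 7.35 and 7.11. Every TS/PD1/CYTO node was below every PD1/CYTO and Isotype node, while node 60 lay above PD1 28 and 30, with node 59 the lowest of the 6 in 14 of 15 genes.

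CD79A, a signaling chain of the B cell receptor (chromosome 7, 24897381 to 24902197), was at 9.47, 9.25 and 9.48 in PD1/CYTO and at 8.94, 8.33 and 9.13 in TS/PD1/CYTO. The difference was -0.60 ± 0.16 (SE, adjusted p = 0.406). TNFRSF13C, the BAFF receptor on which mature B cell survival depends, was at 7.20, 6.81 and 7.23 against 6.54, 6.06 and 6.64. Its 3 TS/PD1/CYTO values were below all 15 other day 23 nodes, which held for 8 of 12203 genes (0.0656%). CXCR5, the chemokine receptor that takes B cells to the follicle, was at 6.73, 6.46 and 6.54 against 6.12, 5.69 and 6.25, and its ligand CXCL13 at 8.23, 8.08 and 8.77 against 7.95, 7.73 and 8.36. The receptor separated the groups and the ligand did not. The transcription factors SPIB (-0.57) and PAX5 (-0.64), the kinase BLK (-0.67) and VPREB3, a protein bound to the assembling receptor (-0.59), had differences of like size. So did IGHD, the constant region of the IgD of naive B cells, at -0.55, and IGHM at -0.41, within an immunoglobulin constant region list whose median was -0.08.

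**Figure D3:**
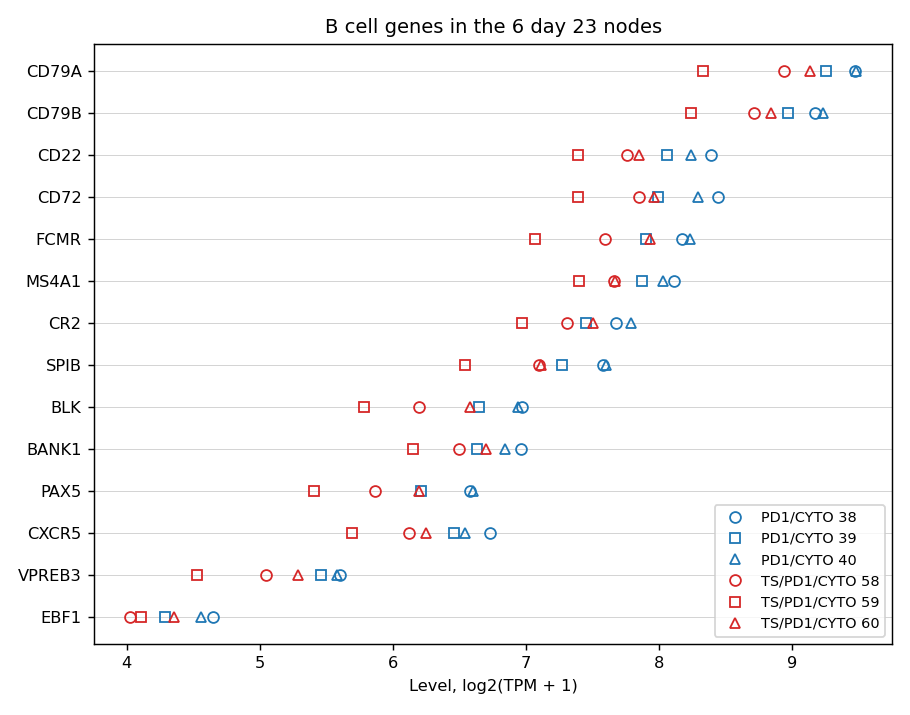
Level of 14 of the 15 B cell genes, as log2(TPM + 1), in the 3 PD1/CYTO nodes (blue) and the 3 TS/PD1/CYTO nodes (red); each symbol is 1 mouse. The red symbols lie to the left of all blue ones in 10 of the 14 genes drawn, and TS/PD1/CYTO 59 (red squares) is the lowest in 13 of 14.

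Genes of later B cell stages had medians near 0 or above it. The 12 germinal center genes had a median of -0.04, with BCL6, the repressor that defines germinal center cells, at -0.14. Of the 19 plasma cell and secretory genes 4 had a difference below 0, and the list median was +0.12. That median was +0.005 without TS/PD1/CYTO 58, +0.41 without 59 and 60, and +0.47 with the other-tissue marker mean as a covariate. Over all settings it ran from -0.0383 to 0.47. JCHAIN, which joins IgM and IgA into polymers, was at 10.56, 10.69 and 9.79 against 11.39, 11.01 and 10.05, and IGHG1 at 11.99, 12.50 and 10.79 against 13.71, 13.01 and 11.53. Both overlapped between groups, with node 58 the highest of the 6. The 9 T follicular helper genes had a median of -0.22, with POU2AF1, a coactivator shared with B cells, at -0.31. That median was -0.34 without TS/PD1/CYTO 58 and -0.15 without 59 alone. Without 59 and 60 it was -0.09, where that of all genes was -0.07.

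For TS/CYTO against CYTO the B cell list median was +0.13 and that of the germinal center list +0.51. The B cell interaction was below 0 in 15 of 15 genes (44.8% of all genes), 13 with an unadjusted p under 0.05 (3.30% of all genes), with a median of -0.67 and none past 5%. The germinal center interaction had a median of -0.62 with 6 of 12 genes lower at an unadjusted p under 0.05 (3.30% of all genes), among them BCL6 at -0.64 ± 0.16 (SE, adjusted p = 0.287).

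Genes of mature dendritic cells arriving from the tissue were lower too, with less separation. All 15 of the migratory and mature dendritic cell list had a difference below 0, 4 did not overlap (11.6% of all genes), and none passed. The median was -0.44, -0.45 without 59 and 60 and -0.25 without 59 alone. The chemokine CCL22, which draws CCR4-bearing cells, was at 6.52, 6.78 and 6.30 in PD1/CYTO and at 5.42, 5.12 and 6.44 in TS/PD1/CYTO. CCL17, which binds the same receptor, was at 1.74, 1.54 and 1.94 against 0.32, 0.23 and 1.00. Node 60 lay with the PD1/CYTO nodes for CCL22 and nearest to them for CCL17, and the differences were -0.87 ± 0.27 and -1.22 ± 0.31 (SE, adjusted p = 0.464 and 0.406). CD40, the receptor for T cell help, and CD83, a maturation marker, differed by -0.45 and -0.44. Both are also made by B cells. The same genes were lower in TS/CYTO than in CYTO, by -0.88 for CCL22 and -1.52 for CCL17, with interactions of +0.01 and +0.29. Of the cross-presenting dendritic cell list, 7 of 9 were below 0 (61.1% of all genes), with a median of -0.13. WDFY4, needed for cross-presentation, was at -0.56, BATF3 at -0.52 and IRF8 at -0.44, while 2 genes were above 0, up to +0.25. With 1 library left out the median ran from -0.30 to +0.09, and without 59 and 60 it was -0.22.

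Regulatory T cell genes had a median of -0.34. A difference below 0 was found in 11 of 13 (61.1% of all genes), and 4 did not overlap (11.6% of all genes). TNFRSF4, the costimulatory receptor OX40, was at 5.83, 6.06 and 5.85 against 5.28, 4.72 and 5.69. The interleukin 2 receptor chain IL2RA was at 4.70, 4.97 and 4.42 against 4.14, 3.77 and 4.43, and the lineage factor FOXP3 at 4.66, 4.76 and 4.55 against 4.41, 3.82 and 4.55. TNFRSF4 separated the groups, while node 60 lay within the PD1/CYTO range for IL2RA and FOXP3. Without 59 and 60 the list median was -0.37. For TS/CYTO against CYTO the median of this list was -0.33, with 1 of 13 above 0, and that of the interaction was +0.03. The cytokine signaling list of STAT5 targets and SOCS genes had a median of -0.26 with 12 of 12 below 0. Without 59 and 60 that median was -0.19. SOCS1, an inhibitor of JAK kinases, differed by -0.55.

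Checkpoint genes had a median of -0.29, with 15 of 16 below 0, and of -0.27 without 59 and 60. PDCD1, which encodes PD1, was at 4.13, 4.09 and 3.65 against 3.61, 3.09 and 3.66, a difference of -0.50 ± 0.20 (SE, adjusted p = 0.501). CTLA4 differed by -0.48, BTLA by -0.33, the ligand CD274 by -0.28 and LAG3 by -0.16. NR4A1, an orphan receptor induced by antigen receptor signals, was at 5.11, 4.84 and 4.90 against 4.38, 4.44 and 4.49 and separated the groups. EGR3, induced by the same signals, differed by -0.51. Over the list of 17 immediate early genes the median was -0.12, with 12 below 0 (61.1% of all genes) and 5 above.

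The 14 NF-kappa-B genes, the transcription factor's subunits and targets, had a median of -0.31 with 13 below 0 and 8 not overlapping (11.6% of all genes). BCL3 was at 6.08, 5.96 and 6.01 against 5.74, 5.56 and 5.75, and NFKB1 differed by -0.29, NFKBIE by -0.37 and NFKBIB by -0.39. The median was -0.19 without 59 and 60 and -0.18 without 59 alone.

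T cell identity genes differed little. All 18 of the list were below 0, but the median was -0.13, 1 did not overlap (11.6% of all genes), and without 59 and 60 the median was +0.11. Without 59 alone it was -0.0033. CD4 was at 7.03, 7.06 and 7.26 against 7.36, 6.74 and 7.0, and CD8A at 6.62, 6.62 and 6.75 against 6.76, 6.24 and 6.58. The TS/PD1/CYTO nodes held both the highest and the lowest value of the 6 for each. Cytotoxic effector genes had a median of -0.22, or -0.07 without 59 and 60 and -0.06 without 59 alone. IFNG, the effector cytokine, was at 2.08, 1.95 and 1.76 against 1.33, 1.40 and 1.42, a difference of -0.55 ± 0.28 (SE, adjusted p = 0.545) in which the groups did not overlap. GZMB, a granule protease, differed by -0.52, the T helper 1 transcription factor TBX21 by -0.46 and the pore former PRF1 by -0.10. The interferon-gamma response list had a median of -0.21, -0.05 without 59 and 60 and -0.34 without PD1/CYTO 40, with the class II transactivator CIITA at -0.43, the invariant chain CD74 at -0.40 and the immunoproteasome subunit PSMB8 at -0.34. Its chemokines CXCL9 and CXCL10 differed by -0.10 and -0.35.

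Macrophage genes had higher values in the TS/PD1/CYTO nodes than in the PD1/CYTO nodes. The arm mean of the list was 5.49 in TS/PD1/CYTO and 5.04 in PD1/CYTO. In CYTO it was 5.41, near that of TS/PD1/CYTO, and it was 5.06 in Isotype, 5.11 in PD1 and 4.92 in TS/CYTO. Of 19 tested genes of tissue and sinus macrophages 13 were above 0, against 38.3% of all genes, 5 were below and 1 was at 0; 7 had an unadjusted p under 0.05 in the higher direction (2.06% of all genes), 4 did not overlap (1.73% of all genes), and none passed. The median was +0.32, and +0.29 without 59 and 60. Leaving out 1 library moved it to +0.15 without TS/PD1/CYTO 58 and to +0.54 without TS/PD1/CYTO 60, and over all settings it ran from 0.0383 to 0.54. ADGRE1, which encodes F4/80, was at 2.96, 2.58 and 2.68 against 3.60, 3.83 and 3.29. MRC1, the mannose receptor CD206, was at 3.44, 3.17 and 3.67 against 3.89, 5.14 and 4.50. Both separated the groups, with differences of +0.83 ± 0.25 and +1.08 ± 0.32 (SE, adjusted p = 0.464 for each). C1QA, a subunit of complement C1q, was at 7.83, 7.55 and 7.30 against 8.34, 8.13 and 7.64, and the iron exporter SLC40A1 at 2.59, 2.37 and 2.43 against 3.99, 3.67 and 2.62. Nodes 58 and 59 were the highest of the 6 for C1QA and SLC40A1, and node 60 lay near the PD1/CYTO nodes. The list was not uniform: CD163, a hemoglobin scavenger receptor, was at 4.57 and 3.38 in nodes 59 and 60 and at the floor in 58, and MARCO, a sinus macrophage scavenger receptor, differed by -0.46. The monocyte chemokine CCL8 was at 8.11, 7.74 and 7.73 against 8.88, 9.31 and 8.17. C3AR1, the complement C3a receptor of myeloid cells, was named after its values were seen, at 0.08, 0.04 and 0.01 against 1.27, 2.32 and 1.19 (adjusted p = 0.406).

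The lysosomal protease CTSB (chromosome 14, 63122462 to 63145923) had the smallest p among the genes higher with TS whose mean lay above the median of means, 4.20. It was at 8.81, 8.76 and 8.77 in PD1/CYTO against 9.31, 9.29 and 9.03 in TS/PD1/CYTO, a difference of +0.43 ± 0.13 (SE, adjusted p = 0.464), and all 3 values were above all 15 other day 23 nodes. That held for 18 of 12203 genes (0.148%). Named from those 18 after their values were seen, the protease CTSD was at 8.83, 8.88 and 8.80 against 9.12, 9.04 and 9.00. The cathepsin inhibitor CSTB differed by +0.22. Library 58 was the highest of the 6 for CTSB, at 9.31 against 9.29 in the next library, and for CTSD, at 9.12. The part of fat and epithelial tissue in these values was not tested.

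For TS/CYTO against CYTO the macrophage list median was -0.48, with arm means of 4.92 and 5.41. The interaction takes in this high CYTO level as well. The interaction was above 0 in 19 of 19 genes (55% of all genes), 10 of them with an unadjusted p under 0.05 (5.29% of all genes), and none passed. The median was +0.83, or +0.79 without TS/CYTO 48. MRC1 stood at +1.86 ± 0.45, ADGRE1 at +1.39 ± 0.36 and CTSB at +0.73 ± 0.19 (SE, adjusted p = 0.287 for each).

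**Figure D4:**
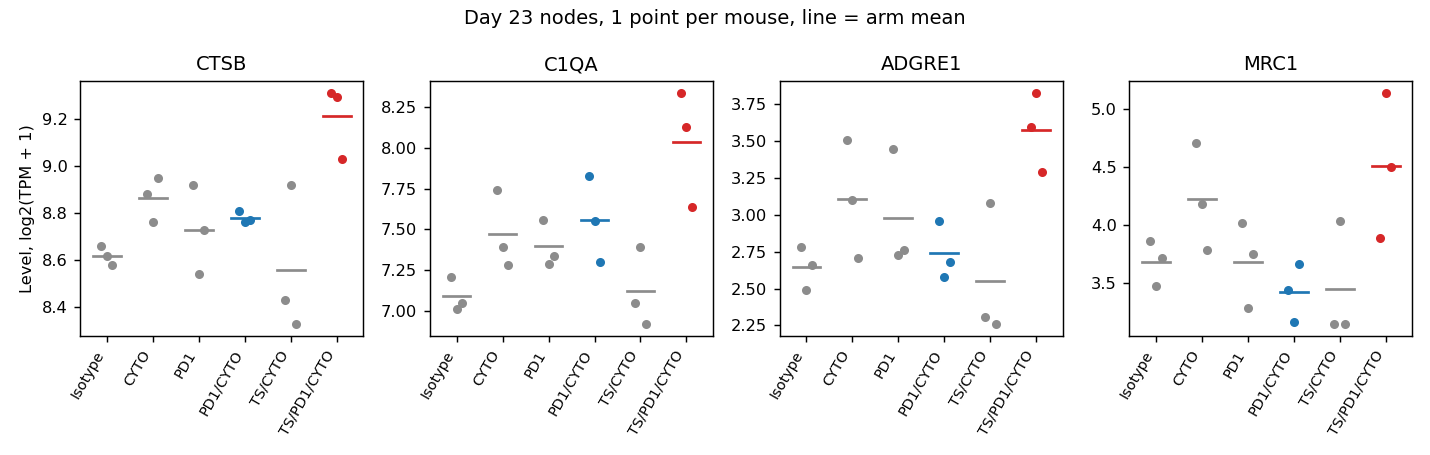
Level of CTSB, C1QA, ADGRE1 and MRC1, as log2(TPM + 1), in each day 23 node by treatment arm; each point is 1 mouse and each line the mean of 3 mice. For CTSB the 3 TS/PD1/CYTO nodes, at 9.03 to 9.31, lie above all others, while for the other 3 genes they overlap with nodes of other arms.

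The remaining genes of the ranking, limited to those above the median level, had varied functions. Besides PML, HELZ2, STAT2, TNFRSF13C, VPREB3 and CXCR5, the 12 lower genes of smallest p with separate groups were FGD2 (-0.50), an activator of CDC42 in antigen-presenting cells, the aspartic protease NAPSA (-0.53), the phosphatase regulator PPP1R16B (-0.47), the actin regulator ABI3 (-0.36), the transcription factor IRF5 (-0.51) and the histone demethylase KDM2B (-0.41), each with an adjusted p of 0.406. Besides CTSB, the 12 higher genes were FAM213B (+0.54), UBR3 (+0.24), the aminopeptidase LAP3 (+0.32), the membrane protein STOM (+0.57), the platelet chemokine PF4 (+0.92), the lysosomal hydrolase AGA (+0.20), ITM2A (+0.52), the small GTPase RAB1A (+0.22), the coregulator CITED2 (+0.20), the ubiquitin-conjugating enzyme UBE2Q2 (+0.23) and the dynein light chain DYNLT1 (+0.24). Their adjusted p ran from 0.464 for CTSB to 0.501. STOM, PF4 and ITM2A were highest in nodes 59 and 60.

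Stromal genes of the node gave values in both directions. The list had a median of -0.02, with CCL19, a T zone chemokine, at 9.39, 9.33 and 9.25 against 8.97, 8.28 and 9.28. TNFSF11, the cytokine RANKL, differed by -0.52 and the venule address molecule MADCAM1 by -0.59. Of the 14 tested genes of the list 9 were below 0 and 5 above it, the highest at +0.35. Of 21 cytosolic ribosomal protein genes 16 did not overlap, all lower (11.6% of all genes), while 1 had an unadjusted p under 0.05. The median was -0.17, or -0.0933 without TS/PD1/CYTO 59, with RPL18 at 10.63, 10.61 and 10.58 against 10.45, 10.12 and 10.48. The 20 proliferation genes had a median of -0.15 (-0.40 without PD1/CYTO 40), and MKI67 differed by -0.04. Of 23 tested genes of a panel of 25 immune, myeloid and matrix genes none passed, among them S100A8 at -0.10, FOS at +0.17, ARG1 at +0.67 and COL1A1 at +0.54. ARG1 was at the floor in the PD1/CYTO nodes and in node 58.

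**Figure D5:**
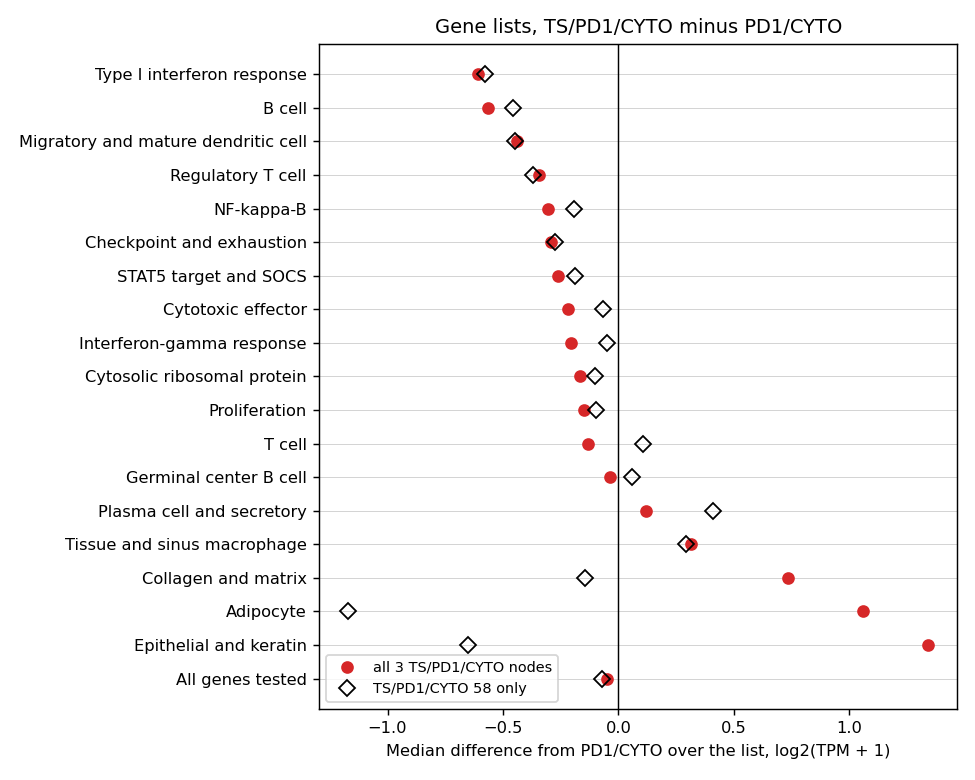
Median difference, TS/PD1/CYTO minus PD1/CYTO in log2(TPM + 1), over each gene list in day 23 nodes, with all 3 TS/PD1/CYTO nodes (red) and with node 58 alone (open diamonds). The interferon list lies at -0.61 and -0.58 and the B cell list at -0.56 and -0.46, while the adipocyte list moves from +1.06 to -1.17.

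The same arms were compared at day 16 in nodes of other mice. Before those values, 2 of the 6 libraries went against their label. PD1/CYTO 22 correlated with the mean tumor profile at 0.981 and had T and B cell list means of 2.70 and 0.89, where the other PD1/CYTO nodes of that day had 7.10 and 7.27 for T cells. TS/PD1/CYTO 34 had a T cell mean of 2.93, an adipocyte mean of 8.18 and a skeletal muscle mean of 10.03. Another library of the fit, PD1 16, had a T cell mean of 3.58. With all libraries, no gene of 12480 passed (0%; smallest adjusted p 0.444, limma), and 1005 were lower (8.05%) and 384 higher (3.08%) at an unadjusted p under 0.05. A difference below 0 was found in 61.5% of genes. Without PD1/CYTO 22 and TS/PD1/CYTO 34, 2 genes passed, CFAP69 at -1.51 and FOSL1 at -2.09, both named after their values were seen, with 2 mice left in each arm. Their means over the libraries fitted were 0.23 and 0.38, near the floor, so nothing is drawn from these 2 calls. The interferon list had a day 16 median of -0.44 with and +0.14 without the 2 libraries, and the B cell list +0.58 and -0.01.

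The difference between days was tested as an interaction, in which no gene of 12596 passed (0%; smallest adjusted p 0.699; 282 lower, 2.24%, and 561 higher, 4.45%, at an unadjusted p under 0.05; 41% of genes below 0). The median day interaction was 0.00 for the interferon list and -1.24 for the B cell list, and -0.77 and -0.55 without the 2 libraries. Among genes above the median level those of smallest p included PLA2G7, a lipase of macrophages, at +1.78 ± 0.40, and LGALS3, the lectin galectin 3, at +1.75 ± 0.41 (SE). Their day 16 differences were -1.52 and -1.50 and became -0.74 and -0.81 without the 2 libraries, so their size depended on those libraries.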

How the data were processed

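Bulk RNA was measured in draining nodes, and the 6 nodes compared were fitted together with all 18 day 23 nodes (6 arms of 3 mice). Per the labels and the submitters' processing notes, the authors used bcl2fastq 2.20, STAR and RSEM 1.3.0 with mm10. The annotation release is not given in the sources used here. The authors deposited log2(TPM + 1) to 2 decimals with a floor of 0.01, from which TPM was recovered for summed levels, and no counts, so depth is unknown. Genes above the floor in at least 3 libraries were tested with limma 3.58.1 in R 4.3.3 (trend and robust variance, Benjamini-Hochberg at 5%), tested on simulated data. No pseudocount was added beyond the 1 deposited. Tumor volumes were compared by exact permutation. The members and lists were chosen with earlier results of these data known. Genes named by rule were the 12 per direction of smallest p with groups that do not overlap and a mean above the median of means; genes of the lists are named as examples. Mice were separate animals. Alternatives changed the normalization, TPM scale, filter, pseudocount (0.1), libraries fitted, RNA integrity, tumor volume and each library in turn. Leaving out TS/PD1/CYTO 59 and 60, or PD1/CYTO 22 and TS/PD1/CYTO 34, and the marker covariate were chosen after seeing the data. Some genes of the lists are not reported here by name. Positions are from GENCODE M21 and promoters from RefSeq.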

Additional observations from a re-analysis of the deposited data

Results flagged for a closer look

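SNORA21 differed between the comparison of TS with PD1/CYTO and that of TS with CYTO. Its interaction of TS with PD1 was -2.31 (limma adjusted p = 0.0437), from 2.75, 2.30 and 2.95 in PD1/CYTO nodes and the floor in all TS/PD1/CYTO nodes, where CYTO 20 at 1.06 was the sole node above the floor among CYTO and TS/CYTO. SNORA21 met the filter through the PD1/CYTO nodes, so the p rests on arms at or near the floor. With 1 library left out it passed without CYTO 20, PD1/CYTO 39 or TS/CYTO 49. It did not pass without CYTO 18 or 19, PD1/CYTO 38 or 40, TS/CYTO 48 or 50, or TS/PD1/CYTO 58, 59 or 60. Nor did it pass with the stricter filter or no filter, pseudocount 0.1, only those arms fitted, RNA integrity or tumor volume as a covariate, or both 59 and 60 left out.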

How the results depend on the processing

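No paired analysis was possible because mouse numbers differ between the arms (38 to 40 against 58 to 60). For TS with PD1/CYTO, 1 gene passed, 0 with the stricter filter, which drops SNORA21 by its mean, and 1 to 5 when 1 library was left out (5 without TS/PD1/CYTO 58, 2 without PD1/CYTO 39). For TS with CYTO 0 passed, 1 without a filter, 8 with only those arms fitted, 180 with the marker covariate, and 0 to 51 with 1 library left out (51 without TS/CYTO 49). The interaction of TS with PD1 had 1 call, and 0 with the stricter filter, pseudocount 0.1, only those arms, or RNA integrity or tumor volume as a covariate. It had 4 with the marker covariate, and 0 to 5 with 1 library left out. These included IFIT3 without TS/CYTO 48 (limma adjusted p = 0.0418), without TS/CYTO 49 (0.0429) and with the marker covariate (0.0457). RTP4 passed without CYTO 18 (0.0176), PML with the marker covariate (0.0457) and CTSB without TS/CYTO 49 (0.0429). IFIT3, RTP4, PML and CTSB did not pass in the main fit. At day 16, 0 passed, 0 to 1 with 1 library left out and 2 without PD1/CYTO 22 and TS/PD1/CYTO 34. The day interaction had 0, 1 with RNA integrity, 5 without those 2 libraries and 0 to 8 with 1 library left out. The cause of these changes was not tested.

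No gene whose sign turned was called. The differences were 0.025 for MKI67 with quantile normalization, 0.0607 for MKI67 with RNA integrity, and 0.0564 for CD4 and -0.20 for FOS with tumor volume. With the marker covariate they were LAG3 0.0253, CXCL9 0.0781, MKI67 0.20 and FOS -0.38. Without 59 and 60 they were COL3A1 -0.20, EPCAM -0.0733, KRT15 -0.08, LPL -0.0133, CD8A 0.10, CD4 0.24, PRF1 0.24, LAG3 0.25, CXCL9 0.29, CXCL10 0.28, MKI67 0.11, COL1A1 -0.15, FOS -0.79, CD163 -0.48 and FOLR2 -0.51. With 1 library left out the ranges were CXCL9 -0.34 to 0.10, MKI67 -0.36 to 0.13, S100A8 -0.22 to 0.0783, CD8A -0.25 to 0.0067, CD4 -0.25 to 0.0633, PRF1 -0.27 to 0.0017, LAG3 -0.39 to 0.015, FOS -0.20 to 0.66 and CXCL10 -0.67 to 0.13. With 3 mice a group and unknown depth, small differences were not detectable.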

Other observations

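A set of 12 further gene lists, which cover plasmacytoid dendritic cells, granulocytes, mast cells, endothelium, red cells, platelets, stress responses, splicing and the respiratory chain, had medians between -0.12 and +0.09 for TS/PD1/CYTO minus PD1/CYTO in day 23 nodes. None of their 131 tested genes passed the 5% threshold, and the most genes with TS/PD1/CYTO lower and no overlap were 5 of the 15 amino acid stress genes, against 11.6% of all genes. A median near 0 could hide larger values: of 9 granulocyte precursor genes 6 or 7 were at the floor in each node, and the largest difference was +1.63. Over the settings the median of that list ran from -0.0806 to 1.46, and that of the mast cell, basophil and eosinophil list from -0.54 to 0.42.

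Among immune lists, class I antigen presentation had a median of -0.21 over 11 genes, with 4 not overlapping lower (11.6% of all genes), -0.095 without TS/PD1/CYTO 59 and 0.0067 without 59 and 60. The immediate early list had a median of -0.12 with 5 of 17 not overlapping lower, and -0.23 without TS/PD1/CYTO 60. The naive and central memory T cell list stood at -0.04. It was -0.21 without TS/PD1/CYTO 58, +0.025 without 59 and +0.17 without 59 and 60. The NK cell list stood at -0.095, or +0.125 without 59 and 60, and the monocyte and inflammatory myeloid list at 0.0167, or -0.065 without 59.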
